A study of Mus musculus with 30 samples.

Results

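EPOP, also named C17orf96, gave 11072 peaks in the first of its chromatin immunoprecipitation (ChIP-seq) replicates in mouse embryonic stem cells, and 2551 of them (23%) were weak EPOP peaks at H3K4me3 regions free of polycomb marks. A peak was taken where it overlapped no peak of EPOP replicate 2, overlapped an H3K4me3 peak in both control lists, and overlapped no control peak of Suz12 (in either list) or H3K27me3. An overlap was 1 bp or more. The absence from replicate 2 removed all but 5177 peaks, the demand for H3K4me3 left 4181, the demand for no Suz12 left 2731, and the demand for no H3K27me3 left 2551. The regions were thus chosen by the presence or absence of peaks in these 7 lists, which is a description and supports nothing here. The other 13 lists were not used to choose them.

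EPOP binds both Polycomb repressive complex 2 (PRC2) and the heterodimer of Elongin B and Elongin C, and so sits between a repressive complex and a factor known for its role in transcription elongation. Suz12 is a core subunit of PRC2, Jarid2 is an accessory subunit, and H3K27me3 is the histone mark that PRC2 deposits. H3K4me3 marks the starts of genes, above all those in CpG islands. A start with H3K4me3 and no H3K27me3 is usually active in embryonic stem cells, while a start with both marks is called bivalent and is poised or silent.

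All cells were E14Tg2A, a male mouse embryonic stem cell line, kept without feeders in serum and LIF. The tested conditions were EPOP knock-down, by a lentiviral short hairpin RNA in stable lines, and Elongin B (EloB) knock-down, by transfected small interfering RNA. Against them stood control lists, most of whose track names carry sh ct or si ct. The H3K27me3 knock-down track name carries SH3, where those of Suz12, H3K4me3, Jarid2 and EPOP replicate 2 carry sh 4. EPOP and EloB had 2 lists upon EPOP knock-down and 2 without, Suz12 and H3K4me3 had 1 list upon each knock-down and 2 without, and Jarid2 and H3K27me3 had 1 list upon EPOP knock-down and 1 without. No RNA sample and no IgG sample was analysed here, and no gene is assigned to a region, so "active" rests on the marks alone.

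A few facts about the lists bear on every result. EPOP replicates 1 and 2 were made with different lots of a home-made antibody, so antibody lot and replicate cannot be told apart for peaks found in replicate 1 alone. The first EPOP knock-down list is titled as an EPOP ChIP but described as IgG, and its title was followed. The 2 EloB replicates were made with antibodies of different makers and with an added protein crosslink. The 20 lists held 108 to 47296 peaks, and read depth is unknown for all of them, so presence, score and width of called peaks are compared and not signal. The score is the authors' own value per peak, at least 50.00 in every list, and many peaks stop at 3100. The labels do not say whether replicates were separate cultures, and most knock-down lists had no replicate. Intervals are 95% Wilson intervals, which cover the counting of regions only.

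The EPOP peaks at these regions were weak. Their lowest, median and highest EPOP scores were 50.03, 69.31 and 339.49, against 50.44, 415.41 and 3233.06 for the 4491 replicate 1 peaks found in both EPOP lists at H3K4me3 with Suz12 in both control lists and H3K27me3. The median score lay at percentile 22.9 of the whole EPOP replicate 1 list. They were also narrower, with a median width of 1352 bp against 2295 bp. The 134 replicate 1 peaks that met every other condition but were also found in replicate 2 had a median score of 93.02 and a median width of 1278.5 bp. A further 534 peaks of replicate 1 alone lay outside H3K4me3 and polycomb and were weaker still, with a median score of 60.34 and a median width of 835.5 bp. These values belong to the list that chose the regions and carry no test.

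At equal score, the second EPOP list held a smaller share of EPOP peaks outside polycomb than of those at polycomb regions. Of replicate 1 peaks with scores of 60 to 80, the second list held 36 of 959 (3.75%, 2.72 to 5.15) at H3K4me3 without polycomb and 67 of 111 (60.4%, 51.1 to 69) at H3K4me3 with Suz12 and H3K27me3. In the band of 120 to 200 the shares were 34 of 238 (14.3%, 10.4 to 19.3) and 617 of 705 (87.5%, 84.9 to 89.8). Only 23 peaks without polycomb scored 200 to 400, of which 1 was in the second list, and none reached 400. The gap between the classes was present in each of these score bands. Absence from replicate 2 is part of the rule, so this too is a description.

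**Figure D1:**
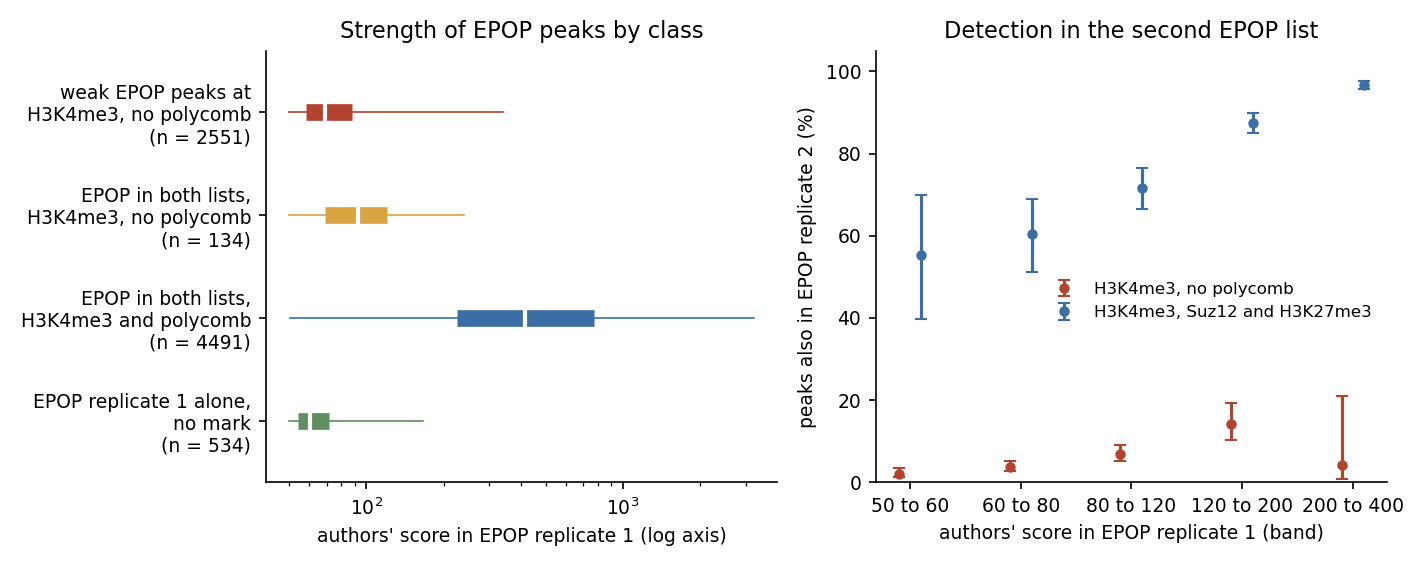
Left, authors' score in EPOP replicate 1 by class of peak on a log axis (white tick, median; box, quartiles; thin line, full range). Right, share of EPOP replicate 1 peaks also found in EPOP replicate 2, by score band, with 95% Wilson intervals. The weak peaks have a median score of 69.31, and in the band from 60 to 80 the second list held 3.75% of peaks without polycomb and 60.4% of peaks at polycomb regions.

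Few regions lay close to the limits of the rule: 71 of 2551 (2.78%) had a control peak of Suz12 or H3K27me3 within 1000 bp, and 24 (0.941%) a peak of EPOP replicate 2. These shares were above those of H3K4me3 regions free of polycomb and of any EPOP peak, at 0.965% and 0.132%. Over all polycomb-free H3K4me3 regions, some of which overlap a peak of EPOP replicate 2, they were 1.1% and 1.03%. The smallest gap between a chosen peak and a peak of EPOP replicate 2 was 93 bp, and the smallest gaps to Suz12 replicate 1, Suz12 replicate 2 and H3K27me3 were 28, 39 and 20 bp. The peaks at those 4 gaps had EPOP scores of 85.19, 67.93, 51.61 and 66.67. On the other side, single lists kept out 134 peaks (EPOP replicate 2), 219 (Suz12 replicate 1), 443 (Suz12 replicate 2) and 180 (H3K27me3), with median EPOP scores of 93.02, 85.32, 89.45 and 83.41. The smallest overlaps that kept a peak out were 384 bp for EPOP replicate 2, 3 and 27 bp for the Suz12 lists and 6 bp for H3K27me3.

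The weak EPOP peaks sat at the middle of H3K4me3 peaks. The centre lay inside the H3K4me3 peak of replicate 1 for 2479 of 2551 (97.2%), and 1469 (57.6%) lay wholly inside it. The median distance between the centres was 209 bp, with quartiles of 86.75 and 423.75 bp. The EPOP peak was the wider one in 615 cases (24.1%). The smallest overlap with an H3K4me3 peak was 8 bp.

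Merging both H3K4me3 control lists gave 23955 H3K4me3 regions free of Suz12 and H3K27me3. Of these, 2480 (10.4%, 9.97 to 10.7) carried a weak EPOP peak, and 38 of them carried more than 1. Another 21242 held no EPOP peak in any of the 4 EPOP lists and are called EPOP-free here. A further 44 weak EPOP peaks lay in H3K4me3 regions that had Suz12 or H3K27me3 elsewhere, and these regions were left out of region counts.

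H3K4me3 itself had higher scores and wider peaks at the regions with a weak EPOP peak. The rule used the presence of these H3K4me3 peaks and not their size, and since they come from the same lists the values carry no test. The H3K4me3 score of replicate 1 had a median of 2446.45 at the 2480 regions (quartiles 306.58 and 3100.00), against 250.98 at EPOP-free regions (101.43 and 2483.91). In replicate 2 the medians were 3100.00 and 479.60. The ceiling of 3100 was reached or passed in replicate 1 by 1112 regions with a weak EPOP peak (44.8%) and by 4739 EPOP-free ones (22.3%). Median H3K4me3 widths in replicate 1 were 2105.5 bp and 1300.5 bp. The ranges overlapped widely, and 10% of the regions with a weak EPOP peak had an H3K4me3 score of 114.58 or less, so not all of them were strong H3K4me3 regions.

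Across quartile groups of the H3K4me3 score, the share of polycomb-free regions with a weak EPOP peak was 3.89% in the lowest group (233 of 5988), then 6.33% (379 of 5989), 12.3% (738 of 5989) and 18.9% (1130 of 5989) in the highest. By H3K4me3 width the shares were 4.1%, 7.39%, 13.3% and 16.6%. Both orders ran one way, yet most regions of the highest score group, 4816 of 5989, were EPOP-free.

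Most of the weak EPOP peaks carried nothing but H3K4me3 in the other lists, though a smaller share than of H3K4me3 regions at large. For 1980 of 2551 (77.6%) the 2 H3K4me3 knock-down lists held a peak and the remaining 11 lists held none. A peak in any of those 11 lists was found at 543 (21.3%), and at 499 (19.6%) it was a Suz12 peak upon knock-down. Counted by H3K4me3 region, nothing but H3K4me3 was found at 1920 of 2480 with a weak EPOP peak (77.4%, 75.7 to 79), against 90.2% (89.8 to 90.6) of EPOP-free regions and 88.6% of all polycomb-free ones. A peak in any of the 11 lists was found at 532 (21.5%, 19.9 to 23.1), against 3.63% (3.39 to 3.89) of EPOP-free regions and 5.83% of all. Suz12 in either knock-down list was found at 489 (19.7%, 18.2 to 21.3), against 2.47% (2.27 to 2.68) of EPOP-free regions and 4.56% of all.

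EPOP peaks were all but absent from these regions upon EPOP knock-down. The first knock-down list held a peak at 0 of 2551, which allows a share of up to 0.118%, and the second held 1 (0.0392%, 0.00692 to 0.222), while over all 23955 polycomb-free H3K4me3 regions the 2 lists held a peak at 0.0167% and 0.0459%. The region still found was chr10:22450315-22451862 (mm9), with an EPOP score of 60.47 in the second knock-down list, against 224.86 in control replicate 1. At polycomb regions the same lists held 43 and 503 of 4491 peaks (0.957% and 11.2%). The classes differ in EPOP score, and among peaks with scores of 80 to 120 both knock-down lists held 0 of 673 without polycomb and 0 of 322 at polycomb regions (Wilson intervals reach 0.568% and 1.18%). The 2 knock-down lists were short, with 108 and 818 peaks, and held a peak at 0.443% and 4.66% of all EPOP replicate 1 peaks. Absence from EPOP replicate 2 was part of the rule, so the low shares do not measure the knock-down at these regions. Peak lists do not show how much EPOP signal remained.

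EloB, the Elongin subunit that EPOP binds, was nearly absent. Lists of EloB made upon EPOP knock-down held a peak at 3 (0.118%, 0.04 to 0.345) and 2 (0.0784%) of the 2551 peaks, and control lists at 3 (0.118%) and 2 (0.0784%). Over all polycomb-free H3K4me3 regions those 4 lists held a peak at 0.334%, 0.1%, 0.409% and 0.184%, so the weak EPOP peaks stood at or below that background. At polycomb regions with EPOP, EloB was found at 2 (0.0445%) and 3 (0.0668%) of 4491 peaks upon EPOP knock-down, against 940 (20.9%) and 1186 (26.4%) without it. The EloB knock-down lists were short as a whole, with 164 and 127 peaks, against 1296 and 1542 in the control lists. Only 4 weak EPOP peaks had EloB in any list. At chr2:37557342-37560006 the EloB scores were 285.43 and 216.01 upon EPOP knock-down, against 295.18 and 224.71 in controls. At chr19:7015526-7017786 they were 506.07 and 350.74 upon knock-down, against 616.96 and 500.16 in controls. EloB peaks at both places were therefore called with and without EPOP knock-down, in both replicates. The other 2 regions, named after their values were seen, chr9:88417265-88418641 and chr17:47765574-47767749, each had a peak in 1 EloB list, with scores of 78.67 (control replicate 1) and 77.07 (knock-down replicate 1).

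Jarid2, the accessory PRC2 subunit, was rare as well. Upon EPOP knock-down it was found at 13 of 2551 peaks (0.51%, 0.298 to 0.87) and without knock-down at 8 (0.314%, 0.159 to 0.618), against 0.313% and 0.217% of all polycomb-free H3K4me3 regions. Counted by region, Jarid2 was found upon EPOP knock-down at 15 of 2480 with a weak EPOP peak (0.605%, 0.367 to 0.996) and at 0.282% (0.22 to 0.363) of EPOP-free regions, and without knock-down at 10 (0.403%, 0.219 to 0.741) and 0.198% (0.146 to 0.267). The order of the Jarid2 lists turned when they were cut by score to equal length, with 2 of 2551 peaks (0.0784%) upon EPOP knock-down and 8 (0.314%) without. At polycomb regions with EPOP the 2 whole lists, of 3665 peaks upon EPOP knock-down and 2641 without, held 70.9% and 50.6% of peaks. The 134 peaks found in both EPOP lists outside polycomb had no Jarid2 in either list, where 0 allows up to 2.24%.

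Suz12 was found more widely. A Suz12 peak was present upon EPOP knock-down at 428 of the 2551 weak EPOP peaks (16.8%, 15.4 to 18.3), although the rule had excluded Suz12 in both control lists, and over all polycomb-free H3K4me3 regions the share was 3.78%. In the EloB knock-down list it was present at 126 (4.94%, 4.16 to 5.85), against 1.23% of all such regions. Counted by H3K4me3 region, Suz12 upon EPOP knock-down was found at 424 of 2480 regions with a weak EPOP peak (17.1%, 15.7 to 18.6) and at 418 of 21242 EPOP-free ones (1.97%, 1.79 to 2.16). For EloB knock-down the counts were 118 (4.76%, 3.99 to 5.67) and 138 (0.65%, 0.55 to 0.767). The knock-down lists of Suz12 were also cut by score to the length of the shortest Suz12 list, while the rule kept the whole control lists. The share of weak EPOP peaks with Suz12 was then 6.9% for EPOP knock-down and 3.68% for EloB knock-down, and at EPOP-free regions 0.447% and 0.466%. Uncut control lists still barred peaks, so these shares are not on an equal footing with the controls. With Suz12 replicate 1 left out of the rule the share upon EloB knock-down was 9.86%, since the si control then no longer barred its peaks.

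The 430 Suz12 peaks at weak EPOP peaks upon EPOP knock-down were weak and narrow, with a median score of 71.85 against 270.52 in that whole list and a median width of 884 bp against 1452 bp. The rule had barred places with a control Suz12 peak, so this contrast is shaped by the choice of regions and supports nothing. The centres of these Suz12 peaks lay a median of 171.5 bp from the EPOP centre. Weak EPOP peaks with such a Suz12 peak had a median EPOP score of 79.39, and those without had 68.00. Over quartile groups of the EPOP score the share with Suz12 upon EPOP knock-down was 10.8%, 13.3%, 17.1% and 25.9%, from lowest to highest. Upon EloB knock-down the same groups held 3.3%, 2.66%, 5.64% and 8.15%. The groups with higher EPOP scores also had higher H3K4me3 scores, with medians of 1608.80, 1893.45, 2889.43 and 3100.00. The part of each in the Suz12 share was not tested.

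**Figure D2:**
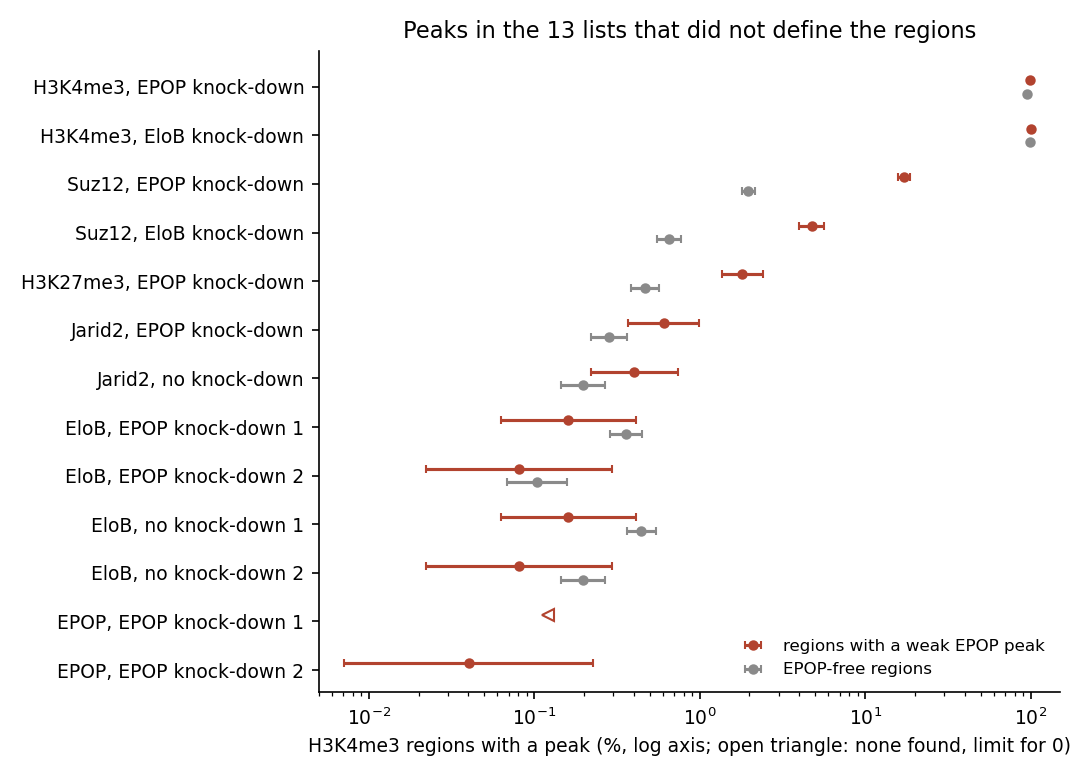
Share of H3K4me3 regions free of polycomb with a peak in each of the 13 lists that the rule did not use, on a log axis, with 95% Wilson intervals, for regions with a weak EPOP peak (n = 2480) and EPOP-free regions (n = 21242). An open triangle marks the limit that a count of 0 allows, and EPOP-free regions are not drawn for EPOP lists, where they are at 0 by definition. Suz12 upon EPOP knock-down is found at 17.1% and 1.97%, while EloB stays below 0.5% in both classes.

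Because both Suz12 control lists were part of the rule, a Suz12 peak at these regions could only come from a knock-down list. The class was therefore rebuilt without any condition on Suz12, a step added after the data were seen, so that the 4 Suz12 lists stood on the same footing. Of 3419 H3K4me3 regions without H3K27me3 that carried an EPOP peak of replicate 1 alone, Suz12 was found at 1090 (31.9%, 30.3 to 33.5) upon EPOP knock-down, against 743 (21.7%, 20.4 to 23.1) in the control list named sh. The si pair held 597 (17.5%, 16.2 to 18.8) after EloB knock-down, against 508 (14.9%, 13.7 to 16.1) in the control list named si. EPOP-free regions without H3K27me3 held Suz12 at 2.99% upon EPOP knock-down against 1.8% in its control. The EloB knock-down list held it at 1.55% of them against 0.915% in its control. In each of the 4 lists, controls included, the interval for regions with such an EPOP peak lay above that for EPOP-free regions.

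How much of the knock-down difference was left depended on list length. With the 4 lists cut by score to 6834 peaks, the EPOP knock-down list held Suz12 at 19.2% (18 to 20.6) and its control at 14.9% (13.8 to 16.2), while the EloB knock-down list held it at 15.5% (14.3 to 16.8) and its control at 14.9% (13.7 to 16.1). The whole lists held 8491 and 7972 peaks for the EPOP knock-down pair and 7168 and 6834 for the EloB knock-down pair. With 1 list per condition there is no replicate check, and the 2 whole control lists also differed from each other, at 21.7% (sh) and 14.9% (si).

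The lists named sh and those named si also differed in where their Suz12 peaks fell. In the highest quartile group of H3K4me3 score, Suz12 was found at 668 of 1604 regions with an EPOP peak of replicate 1 alone (41.6%, 39.3 to 44.1) upon EPOP knock-down, against 408 (25.4%, 23.4 to 27.6) in the sh control. In the si pair it was found at 218 (13.6%, 12 to 15.4) after EloB knock-down, against 192 (12%, 10.5 to 13.7) in the si control. In the second lowest group the EPOP knock-down pair held 14.7% and 14.3%, and the EloB knock-down pair 19.1% and 16.5%. In the whole lists the share was highest in the top group in both sh lists, with and without knock-down, whereas in both si lists it peaked in the third group, at 23.8% upon EloB knock-down and 20.2% in control. With the lists cut to 6834 peaks, the top group held 27% (24.9 to 29.2) upon EPOP knock-down and 17.1% (15.4 to 19.1) in the sh control, and the third group 17.6% and 17%, so the sh control was then level over these groups. In the second lowest group the direction turned for the EPOP knock-down pair, at 6.63% (4.76 to 9.16) against 9.04% (6.82 to 11.9), and the EloB knock-down pair held 16.1% and 16.5%. The si lists still fell in the top group, to 12.2% with EloB knocked down and 12% in control, against 21.7% and 20.2% in the third group. Knock-down method and target cannot be told apart here.

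**Figure D3:**
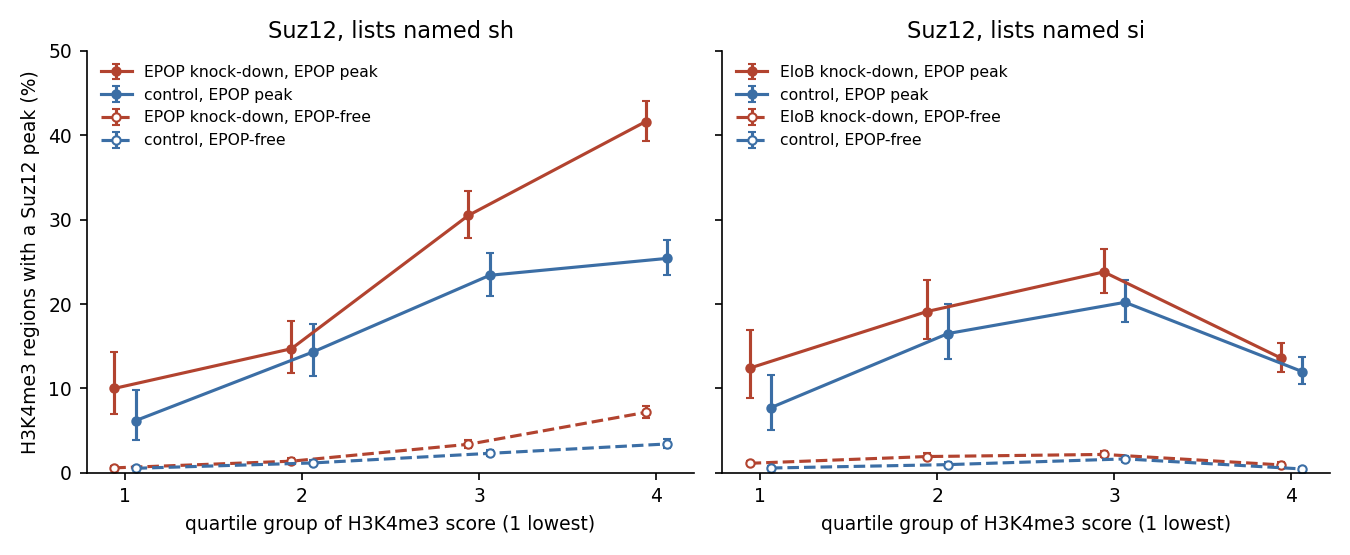
Whole Suz12 lists, of unequal length: share of H3K4me3 regions without H3K27me3 that hold a Suz12 peak, by quartile group of the H3K4me3 score, for regions with an EPOP peak of replicate 1 alone (filled) and EPOP-free regions (open), with 95% Wilson intervals. In the highest group the sh lists hold 41.6% upon EPOP knock-down and 25.4% in control, and the si lists 13.6% upon EloB knock-down and 12% in control.

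H3K27me3, the product of PRC2, had no peak at most of the weak EPOP peaks with Suz12 upon EPOP knock-down. The rule had barred control H3K27me3, which by itself lowers the share in the knock-down list. Upon EPOP knock-down an H3K27me3 peak was found at 51 of the 2551 weak EPOP peaks (2%, 1.52 to 2.62), against 0.664% of all polycomb-free H3K4me3 regions. When each list was first reduced to peaks at or above its median score, the rule gave 915 peaks, and 39 of them held one (4.26%). EPOP replicate 1 was then cut at 126.80, above the 90th percentile of the weak EPOP peaks (115.68). Most of the 915 were thus other EPOP peaks, and their share is not that of a part of the 2551. Of the 51, 17 also held Suz12 upon EPOP knock-down, against 428 of all 2551 weak EPOP peaks (16.8%). The H3K27me3 peaks were weak, with a median score of 63.92 against 160.67 in the whole list, a contrast also shaped by the rule. Their share was higher at weaker H3K4me3 regions: in the 2 lower quartile groups of H3K4me3 score 9 of 233 (3.86%) and 16 of 379 (4.22%) regions with a weak EPOP peak held one, and in the 2 higher groups 17 of 738 (2.3%) and 3 of 1130 (0.265%). EPOP-free regions followed the same order at lower shares, of 0.561%, 0.828%, 0.368% and 0.0415%. With H3K27me3 taken out of the rule, the mark was found at 102 of 2731 peaks (3.73%, 3.09 to 4.51) upon EPOP knock-down, against 180 (6.59%, 5.72 to 7.58) without knock-down. The lists held 7956 and 8811 peaks, and there was 1 of each.

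An H3K4me3 peak remained at nearly all of these regions when EPOP or EloB was depleted. EPOP knock-down left one at 2448 of the 2480 regions (98.7%, 98.2 to 99.1), against 95% of all polycomb-free H3K4me3 regions. EloB knock-down left one at 2477 (99.9%, 99.6 to 100), against 98.7% of all. The 32 regions without an H3K4me3 peak upon EPOP knock-down were weak in control, with a median score of 65.88 and none above 120.24, against a median of 2541.05 for those kept. In the lowest quartile group of H3K4me3 score 202 of 233 regions with a weak EPOP peak were kept (86.7%, 81.7 to 90.5), against 4684 of 5707 EPOP-free ones (82.1%, 81.1 to 83). In the highest group every region of both classes was kept, 1130 and 4816 in number.

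H3K4me3 peaks were slightly wider upon knock-down than in the matched control, by like amounts with and without a weak EPOP peak. Upon EPOP knock-down the median log2 width ratio to the sh control was 0.12 at regions with a weak EPOP peak (quartiles 0.03 and 0.23, 2448 regions) and 0.12 at EPOP-free ones (0.00 and 0.29, 20091 regions). The peak was wider at 1999 regions with a weak EPOP peak (81.7%) and narrower at 447 (18.3%), against 76% and 23.9% of all polycomb-free regions kept. Upon EloB knock-down the median ratio to the si control was 0.05 (quartiles −0.03 and 0.15, 2477 regions), against 0.06 at EPOP-free regions, and 66% were wider and 33.8% narrower, against 65.3% and 34.5% of all such regions. The si control was itself wider than the sh control by a median of 0.16, more than either knock-down difference. Against the si control the EPOP knock-down ratio turned to −0.04, and against the sh control the EloB knock-down ratio was 0.21, so the EPOP knock-down ratio changed its sign with the control.

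**Figure D4:**
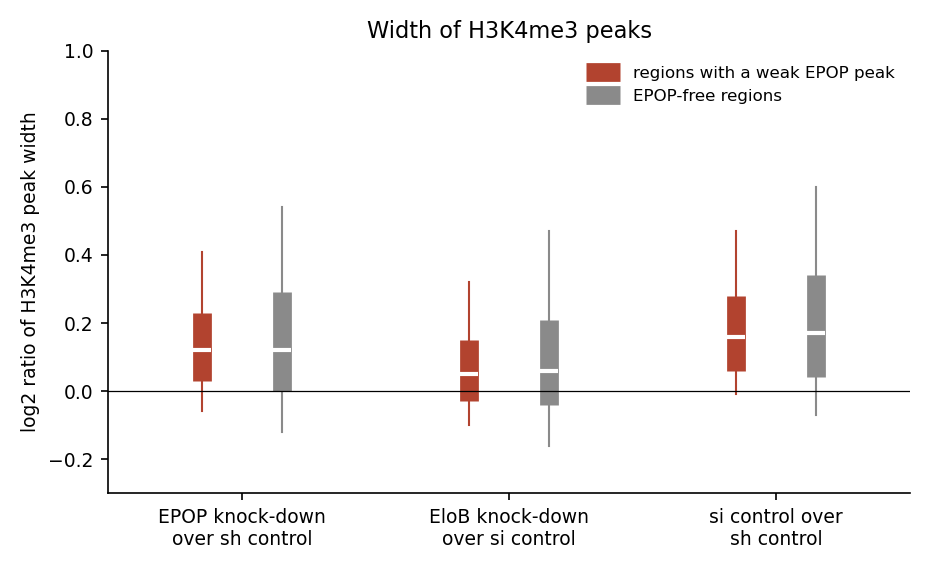
Log2 ratio of summed H3K4me3 peak width at regions with a weak EPOP peak and at EPOP-free regions (white tick, median; box, quartiles; line, 10th to 90th percentile). The medians of both classes lie within 0.01 of each other in each comparison, and the ratio between the controls (0.16 and 0.17) is above both knock-down ratios.

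The weak EPOP peaks lay far from polycomb regions, though somewhat nearer than other H3K4me3 regions did. The median gap to the nearest control peak of Suz12 or H3K27me3 was 52615 bp, against 63948 bp for EPOP-free regions, and 379 (14.9%) lay within 10000 bp, against 11.3%. The median gap to the nearest EPOP peak found in both lists was 83830 bp, against 112513 bp for EPOP-free regions. Weak EPOP peaks and EPOP-free regions differ in width, so these gaps are given as a description.

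Chromosome X carried few weak EPOP peaks. Of its 571 polycomb-free H3K4me3 regions 8 held one (1.4%, 0.712 to 2.74), against 2472 of 23379 (10.6%, 10.2 to 11) on the autosomes, whose single values ran from 6.8% on chromosome 14 to 13.9% on chromosome 11. Among these called regions the median H3K4me3 score of replicate 1 was 1005.27 on X and 228.81 to 435.88 on the autosomes. Places without a called H3K4me3 peak do not enter this median, so it does not measure the signal on X. The cell line is male, and the part of X copy number was not tested. Within the highest quartile group of H3K4me3 score the shares were 1.36% (0.374 to 4.82) of 147 regions on X and 19.3% (18.3 to 20.4) of 5839 on autosomes. The chromosome was not part of the rule. Of the weak EPOP peaks themselves 0.353% (0.186 to 0.669) lay on X, against 0.913% (0.674 to 1.24) of the EPOP peaks at polycomb regions, 0 of 534 peaks with neither H3K4me3 nor polycomb (which allows up to 0.562%) and 1.47% (1.26 to 1.71) of all EPOP replicate 1 peaks. For the 134 peaks found in both EPOP lists outside polycomb the share was 0.746% (0.132 to 4.11), an interval that holds the value of the weak EPOP peaks.

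**Figure D5:**
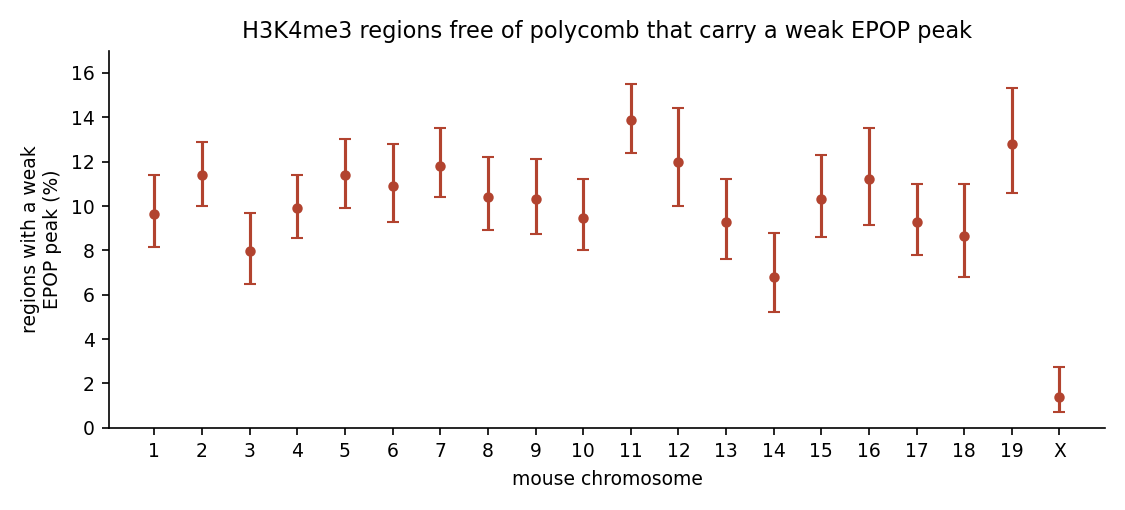
Share of H3K4me3 regions free of polycomb that carry a weak EPOP peak, by chromosome, with 95% Wilson intervals. The autosomes lie between 6.8% and 13.9%, and chromosome X at 1.4%.

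The 10 weak EPOP peaks with the highest EPOP score had scores of 234.04 to 339.49, and 8 of them held a Suz12 peak upon EPOP knock-down while 1 did so upon EloB knock-down. The shares over all weak EPOP peaks were 16.8% and 4.94%, and in their highest quartile group of EPOP score 25.9% and 8.15%. Over all polycomb-free H3K4me3 regions they were 3.78% and 1.23%. The highest was chr12:77469417-77473424, 4008 bp wide, with an EPOP score of 339.49, a Suz12 score of 83.09 upon EPOP knock-down and 3100.00 in each of the 4 H3K4me3 lists. It lay 30348 bp from the nearest control polycomb peak. Next came chr5:137789483-137793003, with an EPOP score of 326.11 and a Suz12 score of 53.98, and chr1:95650277-95652394, with 322.31 and 125.59. The H3K4me3 score was 3100.00 in all 4 lists at 9 of the 10. Over all regions with a weak EPOP peak, 44.8% reached or passed this ceiling in H3K4me3 replicate 1 and 51.3% in replicate 2. In the highest quartile group of EPOP score the median H3K4me3 score of replicate 1 was itself 3100.00.

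The region chr1:52288719-52290847 had an EPOP score of 293.90 and a Suz12 score of 277.42 upon EPOP knock-down, and lay 111598 bp from the nearest control polycomb peak. The 2 regions chr4:54957629-54962844 and chr6:134869273-134871781, with EPOP scores of 275.61 and 258.98, held no Suz12 in either knock-down list. The last of these lay 533 bp from a control polycomb peak. Strong EPOP peaks of the class thus occurred with and without Suz12 upon knock-down.

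A different kind of region was seen at chr10:18245031-18247013, the exception among the 10. Its EPOP score was 234.41, Suz12 scored 126.30 when EPOP was knocked down and 113.12 when EloB was, and H3K27me3 scored 75.48 upon EPOP knock-down. Its H3K4me3 scores were moderate, at 648.23 with EPOP and 922.96 with EloB knocked down, against 366.56 and 814.39 in the controls. The same set of lists held a peak at chr9:73815665-73817048, with Suz12 scores of 147.05 and 103.46 upon EPOP and EloB knock-down, and at chr11:90030841-90031761, with 72.22 and 55.34. In all, 7 weak EPOP peaks had a peak in exactly these lists, and the 3 named are those of highest EPOP score. Peaks in 1 more list outside the rule were found at the EloB regions on chromosomes 2 and 19.

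The highest Suz12 scores upon EPOP knock-down within the class were looked up after the values were seen. A Suz12 peak of score 1696.34 overlapped a weak EPOP peak on chromosome 18, whose EPOP score was 52.68 and which lay 304 bp from a control polycomb peak. The next lay at chr2:19579337-19580626, with a Suz12 score of 297.77, an EPOP score of 52.09 and 203731 bp to the nearest control polycomb peak. The median score of the whole Suz12 list upon EPOP knock-down was 270.52. The score of 297.77 was therefore high for the class but near the middle of that list. Only the score of 1696.34, beside a control polycomb peak, stood well above that median. Regions picked in this way carry no general statement.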

How the data were processed

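Peak lists of 20 ChIP samples were used. Per the submitters' processing notes the tools were Bowtie, TopHat and Cufflinks on mm9 (roles and versions not given in the sources used here), and peak names in the deposited lists carry MACS. The deposited score of each peak is the authors' value, of unstated definition. It served to describe, rank and band peaks. Lists belong to 1 sample each. Groups and replicate numbers came from sample titles, and sh or si from track names. Coordinates are mm9, counted from 1.

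H3K4me3 regions were merged peaks present in both control lists. Width ratios used the summed width of overlapping peaks. Shares carry Wilson 95% intervals, and limits for 0 use 3 counts. No test was made, since regions were chosen from the same lists and knock-down lists of Suz12, H3K27me3, Jarid2 and H3K4me3 had no replicates. Regions named were the 10 with the highest EPOP score, the 5 with peaks in the most lists outside the rule (ties by EPOP score), and those with EPOP upon EPOP knock-down; others are marked as chosen after their values were seen. Members, classes and settings were chosen with earlier results of these data known. Gene lists and motifs had been planned, but no mm9 annotation or sequence was used here, so none was run.

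Alternatives were an overlap of 0.5 or more of the shorter of 2 peaks, peaks up to 1000 bp apart, peaks at or above each list's median score, described lists of equal length, each control replicate left out, and autosomes and X alone. Scripts ran in Python 3.11.15 (NumPy 2.4.6, SciPy 1.17.1), plots were drawn in Matplotlib 3.10.9, and overlap code was checked against bedtools 2.31.1. Both gave the same number in 400 of 400 pairs of lists, and on simulated lists the rule recovered 2500 of 2500 planted regions.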

Additional observations from a re-analysis of the deposited data

How the results depend on the processing

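The rule gave 2551 weak EPOP peaks, 915 peaks when only the higher-scoring part of each list was kept, and 2567 to 2994 with a control replicate left out. The higher-scoring part of EPOP replicate 1 began at 126.80, above the 90th percentile of the weak EPOP peaks (115.68). Most of the 915 were thus other, higher-scoring peaks, and values for that setting describe a different set. The share with Suz12 upon EPOP knock-down, 16.8%, was 14.8% and 15.6% to 24.4% in these settings, in that order. With described lists of equal length it was 6.9%. The share for EloB knock-down, 4.94%, became 3.72%, 4.9% to 9.86%, and 3.68%. By H3K4me3 region the share with Suz12 upon EPOP knock-down, 17.1%, was 14.8% with the higher-scoring part, 6.98% with equal lengths and 15.7% to 24.8% with a replicate left out. For EloB knock-down, 4.76% became 3.63%, 3.51% and 4.63% to 9.44%. EPOP-free regions stayed lower in each of these settings, at 0.447% to 2.56% for EPOP knock-down and 0.247% to 1.07% for EloB knock-down. Leaving Suz12 replicate 2 out raised the share upon EPOP knock-down to 24.4%, and leaving replicate 1 out raised that upon EloB knock-down to 9.86%, since the rule then barred fewer Suz12 peaks.

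Regions that kept H3K4me3 upon EPOP knock-down, 98.7%, were 99.9% with the higher-scoring part, 97.6% with equal lengths and 95.2% to 98.9% with a replicate left out; upon EloB knock-down, 99.9% became 98.6% with equal lengths and 99.1% to 99.9% with a replicate left out. Median log2 width ratios ran from 0.11 to 0.12 and stayed at 0.05 with a replicate left out, and with the other control list they were −0.04 for EPOP knock-down and 0.21 for EloB knock-down. Of 91 such values in all, 67 stayed within the interval or spread of the reported one (for the number of peaks, within 1.5-fold). Some could hardly move: autosomes and X alone left all 2551 peaks, and the spread allowed for width ratios was 0.11. The tally is therefore no measure of robustness. Jarid2 upon EPOP knock-down was at 0.0784% with equal lengths, and both Jarid2 lists were at 0 of 915 with the higher-scoring part. H3K27me3 upon EPOP knock-down was at 4.26% with the higher-scoring part and 2.82% without Suz12 replicate 1. No paired analysis was possible because no result comes from a test, and EloB shares, whose lists share replicate numbers, are given for each replicate. Read depth is unknown, so a missing peak does not measure the signal left.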
